A study of Homo sapiens with 8 samples.

Results

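The genes described are 10 of the 60668 in each count file: the melanin synthesis enzymes DCT, TYR and TYRP1, the melanocyte transcription factor MITF, and the melanosome genes PMEL, MLANA, OCA2, SLC45A2, GPR143 and SLC24A5. They were chosen from the change of DCT, which stood among the largest falls in earlier results of the same contrast, and the other 9 were added for their place in the pathway. The levels of the 10 genes between untreated and treated cells are therefore a description without p-values, and where their calls in the fit over all genes are counted, nothing is read from them. RNA was sequenced from D283-OMO cells, that is D283 Med, a medulloblastoma-derived cell line, carrying an integrated doxycycline (DOX)-inducible transgene for OMOMYC, a dominant negative form of MYC. Both groups carried the transgene: the 4 OMO libraries came from untreated cells and the 4 OMO+DOX libraries from cells given DOX for 72 h to induce OMOMYC. Cells without the transgene given DOX were not analysed here, so an effect of DOX itself and one of OMOMYC cannot be told apart.

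Melanin is made in melanosomes, organelles related to lysosomes. TYR, the rate-limiting enzyme, oxidizes tyrosine to dopaquinone, DCT (dopachrome tautomerase) converts dopachrome to a carboxylated indole, and TYRP1 acts with TYR on the later steps. MITF drives these genes in melanocytes and in the retinal pigment epithelium (RPE). DCT is also known as an early marker of melanocyte precursors, and neural progenitors of the developing brain express it too.

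The promoters are shown because MITF is known to bind the M-box, an extended E-box, in the promoters of the enzyme genes. RefSeq (GRCh38.p14) gave 11 windows, from 250 bases before to 50 bases after the annotated start, for 8 of the 10 genes, and none for PMEL and SLC45A2. The windows with an M-box 8-mer (TCATGTGC) on either strand are printed below, followed by the MITF window that holds a cAMP response element. Each runs 5′ to 3′ on the strand of its gene, and capitals mark matches to TCATGTGC, to its inner E-box CATGTG, or, in MITF, to TGACGTCA, on either strand.
DCT, chr13:94479633-94479932, minus strand: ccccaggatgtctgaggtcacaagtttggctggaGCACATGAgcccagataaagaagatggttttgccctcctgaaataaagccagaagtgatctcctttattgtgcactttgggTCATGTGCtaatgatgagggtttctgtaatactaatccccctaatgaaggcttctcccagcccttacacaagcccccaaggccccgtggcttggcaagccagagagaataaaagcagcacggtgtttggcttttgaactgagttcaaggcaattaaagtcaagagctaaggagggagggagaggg
TYR, chr11:89177625-89177924, plus strand: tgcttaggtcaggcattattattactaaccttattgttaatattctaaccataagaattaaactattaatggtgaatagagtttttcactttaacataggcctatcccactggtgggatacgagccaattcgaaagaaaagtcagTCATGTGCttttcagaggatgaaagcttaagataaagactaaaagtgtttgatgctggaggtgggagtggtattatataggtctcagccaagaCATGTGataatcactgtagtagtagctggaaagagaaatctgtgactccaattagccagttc
TYRP1, chr9:12693135-12693434, plus strand: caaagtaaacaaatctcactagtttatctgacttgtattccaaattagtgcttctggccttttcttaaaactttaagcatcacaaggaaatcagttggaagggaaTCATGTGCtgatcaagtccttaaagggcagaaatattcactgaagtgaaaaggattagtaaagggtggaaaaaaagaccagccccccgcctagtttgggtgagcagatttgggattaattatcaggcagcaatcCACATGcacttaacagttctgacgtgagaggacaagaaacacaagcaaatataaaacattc
GPR143, chrX:9765798-9766097, minus strand: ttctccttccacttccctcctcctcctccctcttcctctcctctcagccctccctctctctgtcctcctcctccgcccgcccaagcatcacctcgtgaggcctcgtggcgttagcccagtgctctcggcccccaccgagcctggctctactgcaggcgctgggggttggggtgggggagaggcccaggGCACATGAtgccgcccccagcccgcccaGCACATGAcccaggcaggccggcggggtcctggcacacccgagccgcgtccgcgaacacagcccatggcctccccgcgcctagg
MITF, chr3:69936342-69936641, plus strand: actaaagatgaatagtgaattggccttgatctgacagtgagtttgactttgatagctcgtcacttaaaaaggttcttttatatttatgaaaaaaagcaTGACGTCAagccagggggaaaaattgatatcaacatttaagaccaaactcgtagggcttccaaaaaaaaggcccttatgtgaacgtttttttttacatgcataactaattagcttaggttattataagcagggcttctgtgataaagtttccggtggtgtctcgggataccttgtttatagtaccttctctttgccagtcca

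The M-box 8-mer was present in 4 of the 11 windows, those of DCT, TYR, TYRP1 and GPR143, and in 197 of all 35116 windows of the same length (0.561%). DCT held a copy on the reverse strand that began 216 bases before the start, at position -216, and a copy on its own strand at -135. TYR held it at -105 and TYRP1 at -145, while GPR143 held 2 copies on the reverse strand, at -62 and -34. The shorter E-box CATGTG, which every M-box 8-mer contains, was found in 6 of the 11 windows, those of OCA2 and SLC24A5 included, and in 11.1% of all windows. The palindromic E-box CACGTG, the preferred site of MYC with MAX, was in none of the 11 windows and in 7.26% of all windows, so these letters were not in the windows searched. TAATCC, a site bound by OTX homeodomain proteins and left in lower case above, was in 3 of the 11 windows (DCT, TYRP1 and SLC24A5) and in 6.36% of all windows. The cAMP response element TGACGTCA was in 1 of the 11, at -152 of the third MITF window, whose start is the one known for the melanocyte form of MITF, and in 1.85% of all windows. Such matches describe the letters of the reference genome and are not measured binding.

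**Figure D1:**
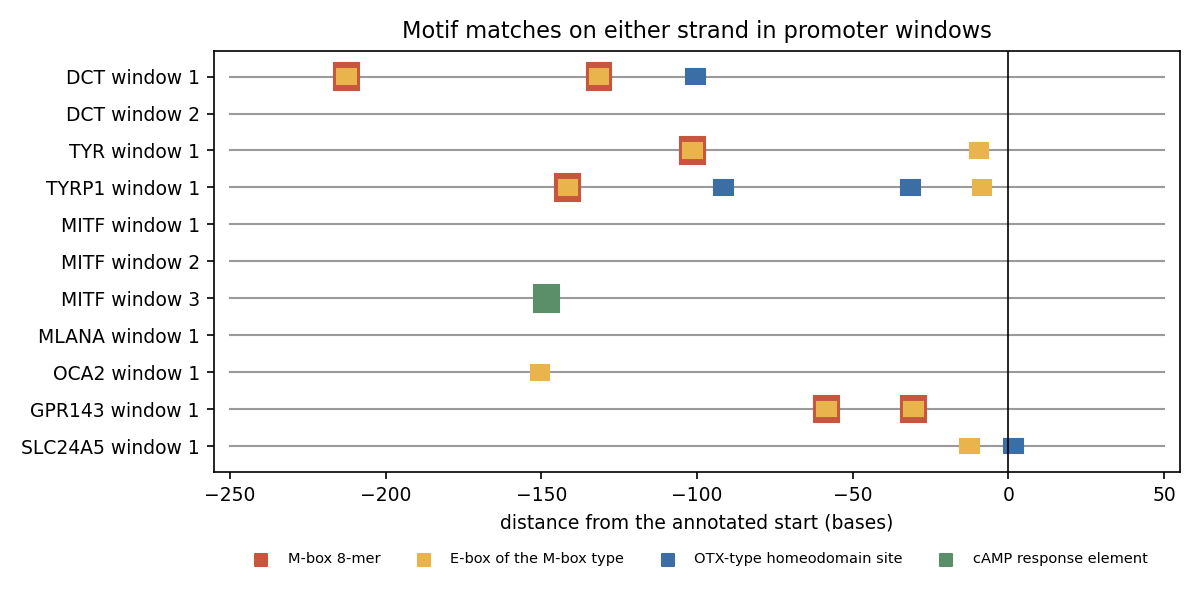
Motif matches on either strand in 11 promoter windows of 8 genes, by distance in bases from the annotated start (vertical line). Tall red blocks are M-box 8-mers, with the inner E-box in yellow. They lie in the windows of DCT, TYR, TYRP1 and GPR143, and the second DCT window holds no match.

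The total of expected counts was 46592947 to 54020506 in the OMO libraries and 38390696 to 49249167 in the OMO+DOX libraries. By these totals, 3 counts correspond to 0.0555 to 0.0781 CPM, the count scaled to the size of the library. The filter on low counts used such CPM, while the levels given for genes are also scaled by TMM. The libraries were labelled as 4 replicates per group, without a batch. Of the 60668 genes, 15222 passed a filter that asked for over 1 CPM in 4 libraries or more, and 1084 of these (7.12%) were called at an adjusted p (FDR) below 0.001 and an absolute log2 fold change (log2FC) above 2. Adjusted p-values are from edgeR's quasi-likelihood fit over all 15222 genes. MYC stood at 939 ± 75.6 CPM (SD, n = 4) without and 1120 ± 56.8 CPM with DOX, and reads from the OMOMYC transgene may be part of both. RNA of CAD and NCL, targets of MYC, fell (log2FC -0.48, FDR 1.33e-06, and -0.44, FDR 1.23e-06). In RNA from many cells, fewer cells of a type and less RNA per cell cannot be told apart, which holds for all levels below.

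Of the 10 genes, 5 passed the filter: DCT, MITF, OCA2, SLC45A2 and SLC24A5. SLC45A2 and SLC24A5 passed only through their level in OMO+DOX and so had to differ between the groups. At FDR below 0.001 and absolute log2FC above 2, 2 of the genes were called higher, MITF and SLC24A5, beside 4.38% of all genes tested, and 1 lower, DCT, beside 2.75%. At FDR below 0.05, 3 were called higher and 2 lower, beside 38.5% and 38.1% of all genes, and 76.6% in either direction. The CPM of the groups did not overlap in any of the 5 genes that passed the filter, beside 71.7% of all genes that passed it. With the genes under the filter included, the groups did not overlap in 7 of the 10. Under a stricter filter, over 1 CPM in 5 libraries or more, SLC45A2 and SLC24A5 were not tested and 1 gene was called higher at either threshold. The set was picked with this contrast known and is a set that moved in both directions, and nothing is read from these counts.

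**Figure D2:**
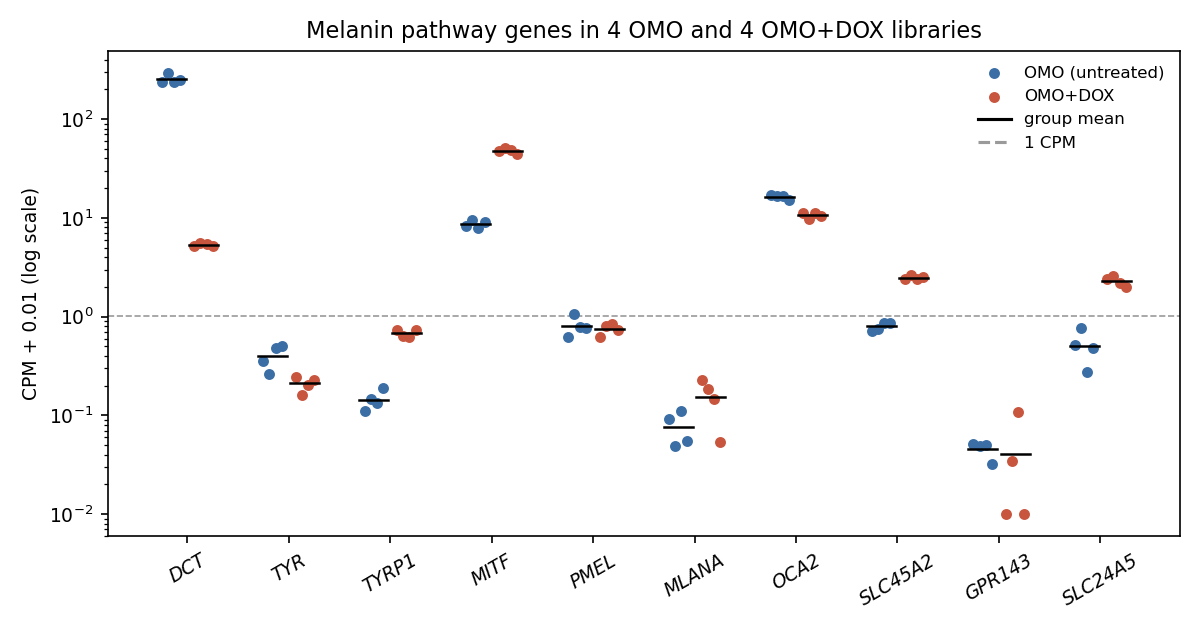
CPM plus 0.01 (log scale) of the 10 genes in each of the 4 OMO (blue) and 4 OMO+DOX (red) libraries, with group means as black lines and 1 CPM as a dashed line. DCT fell from 238 to 295 CPM to 5.24 to 5.51 CPM, while MITF rose from 7.87 to 9.58 CPM to 44.6 to 50.5 CPM.

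DCT (ENSG00000080166.16, chr13:94436808-94479682 on the minus strand of GRCh38) was the main enzyme gene of the untreated cells. Its 4 OMO libraries gave 238, 295, 239 and 252 CPM, from 11249 to 15233 counts. The 4 OMO+DOX libraries gave 5.24, 5.51, 5.45 and 5.24 CPM, from 221 to 279 counts. The groups were far apart, and the spread within each was small, with a coefficient of variation of 10.4% in OMO and 2.6% in OMO+DOX. The mean went from 256 ± 26.7 to 5.36 ± 0.140 CPM (SD, n = 4), 47.7-fold lower (log2FC -5.58, standard error 0.09). It was number 622 of the genes that passed the filter by level in OMO and number 11654 in OMO+DOX, and its log2FC was the 5th largest fall. DCT overlapped no other counted gene.

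TYR (ENSG00000077498.9, chr11:89177452-89295759, plus strand) and TYRP1 (ENSG00000107165.13, chr9:12685439-12710290, plus strand) did not pass the filter and rested on few counts. TYR had 17, 13, 23 and 22 counts in the OMO libraries and 12, 6, 10 and 10 in the OMO+DOX libraries. Its level was 0.390 ± 0.112 CPM without and 0.200 ± 0.0379 CPM with DOX (SD, n = 4). The lowest OMO library, at 0.252 CPM, lay just above the highest OMO+DOX library, at 0.237 CPM. TYRP1 had 5, 7, 6 and 8 counts in OMO and 37, 25, 31 and 33 counts in OMO+DOX. Its level was 0.135 ± 0.0328 CPM without and 0.671 ± 0.0659 CPM with DOX, so TYRP1 stood above its OMO range in every OMO+DOX library. Fitted without the filter, the log2FC was -0.96 (standard error 0.32) for TYR and 2.28 (standard error 0.30) for TYRP1. The 3 enzyme genes whose windows share the M-box 8-mer thus had a lower mean in OMO+DOX for DCT and TYR and a higher one for TYRP1.

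Among the counts of the 3 enzymes, DCT made up 99.73% to 99.87% in the OMO libraries. In the OMO+DOX libraries it made up 84.44% (95% Wilson interval 80.03% to 88.03%), 87.7%, 87.19% and 84.7%, and the intervals cover counting error only. DCT therefore had most of the enzyme counts in both groups. Over all 10 genes, DCT took 89.6% to 91.0% of the counts in OMO and 7.38% to 7.88% in OMO+DOX, and MITF took 2.96% to 3.23% and 67.1% to 69.4%. The ratio of DCT to MITF counts went from 28.0 to 30.8 in OMO to 0.109 to 0.117 in OMO+DOX. The summed level of the 10 genes fell from 265 to 324 CPM to 66.5 to 72.7 CPM, whereas without DCT it was higher with DOX, at 61.3 to 67.2 against 27.0 to 29.1 CPM.

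**Figure D3:**
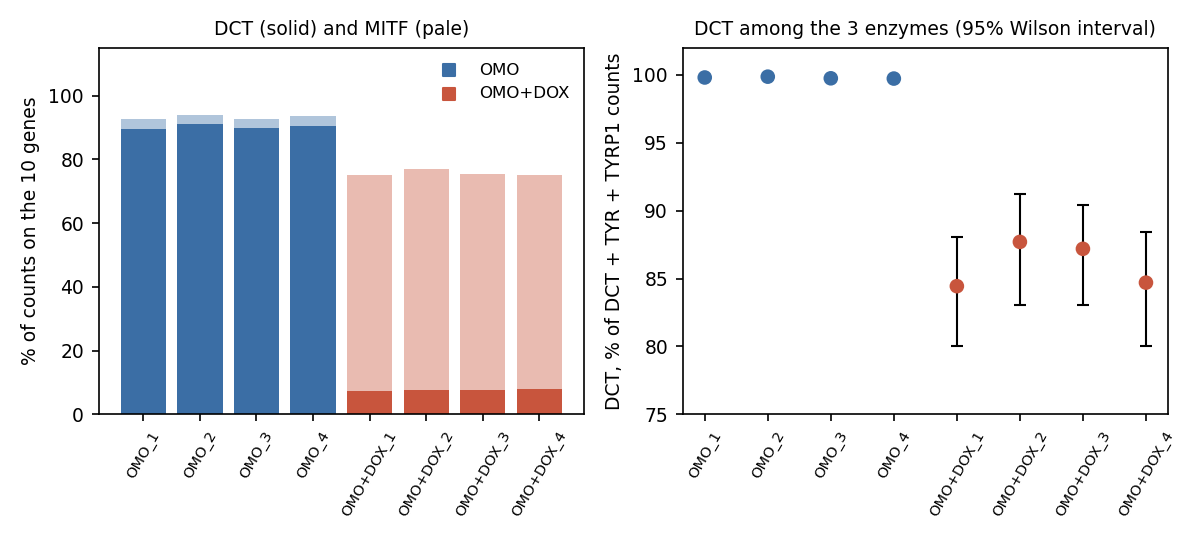
Left, percent of the counts of the 10 genes taken by DCT (solid) and MITF (pale) in each OMO (blue) and OMO+DOX (red) library. Right, DCT as percent of the counts of DCT, TYR and TYRP1, with 95% Wilson intervals and an axis that starts at 75%. DCT held 89.6% to 91.0% of the counts on the 10 genes in OMO and 7.38% to 7.88% in OMO+DOX.

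MITF (ENSG00000187098.15, chr3:69739435-69968337, plus strand) moved in the opposite direction to DCT. It stood at 8.18, 9.58, 7.87 and 9.01 CPM in the OMO libraries, from 387 to 495 counts. In the OMO+DOX libraries it stood at 48.1, 50.5, 48.6 and 44.6 CPM, from 2025 to 2486 counts. Every OMO+DOX library was above every OMO library, and the mean rose from 8.66 ± 0.779 to 47.9 ± 2.45 CPM (SD, n = 4), 5.54-fold (log2FC 2.47, standard error 0.07). MITF went from number 10437 to number 4484 by level and its log2FC was the 498th largest rise. The counts are sums per gene, so the forms of MITF that begin at different starts were not separated.

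The genes of melanosome structure, PMEL and MLANA, were low in both groups. PMEL (ENSG00000185664.14, chr12:55954105-55973317, minus strand), which forms the fibrils on which melanin is laid down, gave 0.612, 1.06, 0.772 and 0.762 CPM in OMO and 0.611, 0.797, 0.841 and 0.726 CPM in OMO+DOX. The groups overlapped, at 0.803 ± 0.189 and 0.744 ± 0.100 CPM (SD, n = 4), and the log2FC without the filter was -0.14 (standard error 0.21). MLANA (ENSG00000120215.10, chr9:5890802-5910606, plus strand), a melanosome protein used as a melanoma marker, had 4, 2, 5 and 2 counts in OMO and 11, 7, 7 and 2 in OMO+DOX, and the groups overlapped. PMEL shares 6016 bases with CDK2 on the other strand, and MLANA lies inside KIAA2026, also on the other strand. Whether strand was used in counting was not given in the sources used here, so reads of such pairs may not be told apart.

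OCA2 (ENSG00000104044.16, chr15:27754875-28099358, minus strand), an anion channel of the melanosome, was lower with DOX. It stood at 16.9, 16.5, 16.5 and 15.2 CPM in OMO and 11.1, 9.74, 11.3 and 10.5 CPM in OMO+DOX. The groups did not overlap, and the mean fell from 16.3 ± 0.752 to 10.7 ± 0.697 CPM (SD, n = 4; log2FC -0.61, standard error 0.06).

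SLC45A2 (ENSG00000164175.15, chr5:33944616-33984730, minus strand), a transporter of the melanosome membrane, gave 0.714, 0.735, 0.854 and 0.852 CPM in OMO and 2.41, 2.62, 2.40 and 2.49 CPM in OMO+DOX. The mean rose 3.14-fold, from 0.789 ± 0.0744 to 2.48 ± 0.100 CPM (SD, n = 4; log2FC 1.65, standard error 0.11). SLC24A5 (ENSG00000188467.11, chr15:48120972-48142672, plus strand), a potassium-dependent sodium and calcium exchanger, gave 0.510, 0.755, 0.264 and 0.471 CPM in OMO and 2.39, 2.59, 2.19 and 1.98 CPM in OMO+DOX. For both transporters every OMO+DOX library was above every OMO library. The mean of SLC24A5 rose 4.57-fold, from 0.500 ± 0.201 to 2.29 ± 0.262 CPM (log2FC 2.18, standard error 0.22). Its log2FC was 1.96 and no longer above 2 without OMO replicate 3, its lowest library. Its expected counts were not whole in any of the 8 libraries, and it shares 8042 bases with MYEF2 on the other strand, which stood at 0.168 ± 0.0687 and 0.960 ± 0.169 CPM. The values of SLC24A5 are therefore uncertain as those of 1 gene.

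GPR143 (ENSG00000101850.13, chrX:9725346-9786297, minus strand), a receptor of the melanosome membrane and the gene of ocular albinism, was not detectable above the limit of 3 counts in OMO, with 2, 2, 2 and 1 counts. In OMO+DOX it had 0, 1, 5 and 0 counts. GPR143 shares 15692 bases with TBL1X on the other strand. No fold change is given for it, and its window was the other one with 2 M-box 8-mers.

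Compared per kb of exon, the order of the genes changed between the groups. In OMO, DCT was first at 33.9 ± 3.55 CPM per kb (SD, n = 4), followed by OCA2 at 4.93 ± 0.225 and MITF at 1.21 ± 0.109 CPM per kb, with no overlap between neighbours. SLC45A2, PMEL, TYR and SLC24A5 followed at 0.241, 0.205, 0.129 and 0.105 CPM per kb, each overlapping the next, and TYRP1, MLANA and GPR143 were lowest, at 0.0360 CPM per kb and below. In OMO+DOX, MITF was first at 6.68 ± 0.343 CPM per kb and OCA2 second at 3.23 ± 0.213. SLC45A2, at 0.759 ± 0.0311, stood just above DCT, at 0.711 ± 0.0187 CPM per kb, and their libraries did not overlap. SLC24A5 followed at 0.479, and PMEL and TYRP1, at 0.191 and 0.179 CPM per kb, overlapped. TYR, MLANA and GPR143 were last, each overlapping the next.

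The other genes of the pathway moved in both directions. In 8 lists with 98 genes, 72 passed the filter, and at FDR below 0.05 24 rose, 26 fell and 22 did not pass, with a median log2FC of 0.04. Over all genes tested 38.5% rose and 38.1% fell, with a median log2FC of 0.01. At FDR below 0.001 and absolute log2FC above 2, 4 of the 72 rose (SYTL2, GPNMB, GNAQ and PAX6) and 3 fell, among them TRPM1 and SOX9. The first number was 7 without a filter and 2 under the stricter one. By the CPM of the filter, tested genes at or under 1 CPM in every library of 1 group passed only through the other group and so had to differ. Among them were PAX6, GNAQ, RAB17 and HPD, and of the markers below NGFR, RGR and UNC5D.

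Of the genes for building melanosomes, which sort cargo from endosomes, 17 of 18 passed the filter, 4 rose and 5 fell, with a median log2FC of 0.03. RAB38, a small GTPase that delivers TYR and TYRP1 to melanosomes, rose from 1.18 ± 0.153 to 3.12 ± 0.354 CPM (log2FC 1.40, standard error 0.13, FDR 1.27e-06). AP3B1, a subunit of the AP-3 adaptor, fell from 167 ± 5.28 to 117 ± 4.54 CPM (log2FC -0.52, FDR 8.27e-07). HPS3, of the BLOC-2 complex, rose (log2FC 0.40, FDR 1.29e-04). RAB32, the close relative of RAB38, had no count in OMO and 0.0313 CPM in OMO+DOX, at or under the limit of 3 counts in every library. With library sizes not corrected by TMM the counts of this list were 9 higher and 3 lower, and the median of all genes was then shifted by 0.13.

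Among genes that move melanosomes along actin, 7 of 8 were tested, 4 rose and 3 fell, with a median log2FC of 0.41. SYTL2, an effector of RAB27A, rose 9.65-fold, from 1.69 ± 0.310 to 16.3 ± 1.46 CPM (log2FC 3.27, standard error 0.12, FDR 3.74e-10). MYO5A, the myosin motor of melanosomes and of neuronal cargo, rose from 51.4 ± 7.82 to 164 ± 9.24 CPM (log2FC 1.68, FDR 2.04e-08). RAB17, a small GTPase, fell (log2FC -1.64, FDR 1.20e-06), as did MYRIP, which links RAB27A to myosin in the RPE (log2FC -1.61, FDR 1.18e-09). MLPH, the linker between RAB27A and MYO5A in melanocytes, stood at 0.00510 CPM in OMO and 0.00977 CPM in OMO+DOX, under the limit of 3 counts.

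Of other pigment genes, 11 of 12 were tested, 5 rose and 4 fell, with a median log2FC of 0.05. GPNMB, a melanosome and lysosome glycoprotein related to PMEL, rose 5.63-fold, from 22.3 ± 1.57 to 126 ± 12.3 CPM (log2FC 2.49, standard error 0.08, FDR 9.73e-11). TRPM1, a channel of melanocytes and of retinal bipolar cells, fell 5.98-fold, from 7.32 ± 0.393 to 1.22 ± 0.0890 CPM (log2FC -2.58, standard error 0.09, FDR 3.5e-10). SLC24A4, a relative of SLC24A5, fell from 16.0 ± 5.46 to 4.46 ± 0.367 CPM (log2FC -1.84, FDR 6.87e-06).

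Upstream of MITF, 6 of 11 signalling genes were tested, with 2 higher, 1 lower and a median log2FC of 0.0. KIT, the receptor that melanocyte precursors need, fell from 6.26 ± 0.213 to 2.47 ± 0.280 CPM (log2FC -1.34, FDR 1.28e-07). MC1R, the melanocortin receptor, rose from 1.33 ± 0.153 to 2.63 ± 0.140 CPM (log2FC 0.98, FDR 8.84e-06), and GNAQ, a G protein subunit, from 0.841 ± 0.0968 to 6.50 ± 0.722 CPM (log2FC 2.94, FDR 1.17e-09). EDNRB was under the limit of 3 counts and EDN3 had no count.

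Of 13 transcription factors known to act on MITF, 6 were tested, with 1 higher, 3 lower and a median log2FC of -0.46. PAX6, an eye and brain factor that works with MITF in the RPE, rose from 0.154 ± 0.0667 to 52.9 ± 1.81 CPM (log2FC 8.40, standard error 0.12, FDR 2e-13). SOX9, an activator of MITF known in melanocytes, fell 7.45-fold, from 90.6 ± 7.29 to 12.2 ± 0.831 CPM (log2FC -2.90, standard error 0.07, FDR 1.52e-11). OTX2, which with MITF activates pigment genes in the RPE, fell from 1050 ± 17.4 to 510 ± 1.79 CPM (log2FC -1.04, FDR 3.23e-10). SOX10 and PAX3 were nearly absent, with SOX10 at 2 to 6 counts in OMO and 8 to 16 in OMO+DOX and PAX3 without a count. Others of the list were not, among them ZEB2, at 60.6 CPM in OMO and 66.6 CPM in OMO+DOX, and CREB1, at 59.0 and 64.0 CPM. Both tested relatives of MITF rose, TFEB from 2.81 ± 0.485 to 6.18 ± 0.738 CPM (log2FC 1.14, FDR 8.23e-06) and TFE3 from 34.2 ± 0.843 to 52.0 ± 2.28 CPM (log2FC 0.60, FDR 2.26e-07), with a median log2FC of 0.87. TFEC had no count in OMO and 0.0257 CPM in OMO+DOX, under the limit of 3 counts in every library.

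Of 12 other known targets of MITF, 10 were tested, 2 rose and 5 fell, with a median log2FC of -0.14. MET, the receptor of hepatocyte growth factor, fell from 8.61 ± 0.707 to 4.36 ± 0.416 CPM (log2FC -0.98, FDR 1.25e-06) and BCL2 from 9.62 ± 0.543 to 6.10 ± 0.406 CPM (log2FC -0.66, FDR 6.72e-06), whereas CAPN3 rose from 2.10 ± 0.530 to 3.62 ± 0.348 CPM (log2FC 0.79, FDR 6.92e-04). Of 21 genes of tyrosine and catechol metabolism, 13 were tested, 4 rose and 5 fell, with a median log2FC of 0.07, and 7 rose without OMO replicate 3. HPD, of tyrosine breakdown, fell from 2.07 ± 0.438 to 0.746 ± 0.123 CPM (log2FC -1.46, FDR 1.56e-05), as did PCBD1, which helps to recycle the cofactor of tyrosine hydroxylase (log2FC -0.76, FDR 2.26e-06), while GCH1, which starts the synthesis of that cofactor, rose (log2FC 0.77, FDR 6.84e-05). MIF and DDT, relatives of one another, are known to act on D-dopachrome, a form other than the one that DCT converts. MIF went from 126 ± 15.2 to 101 ± 12.7 CPM (log2FC -0.33, FDR 0.0101), and DDT stood at 33.2 ± 4.17 and 34.9 ± 2.80 CPM (log2FC 0.07, FDR 0.463).

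**Figure D4:**
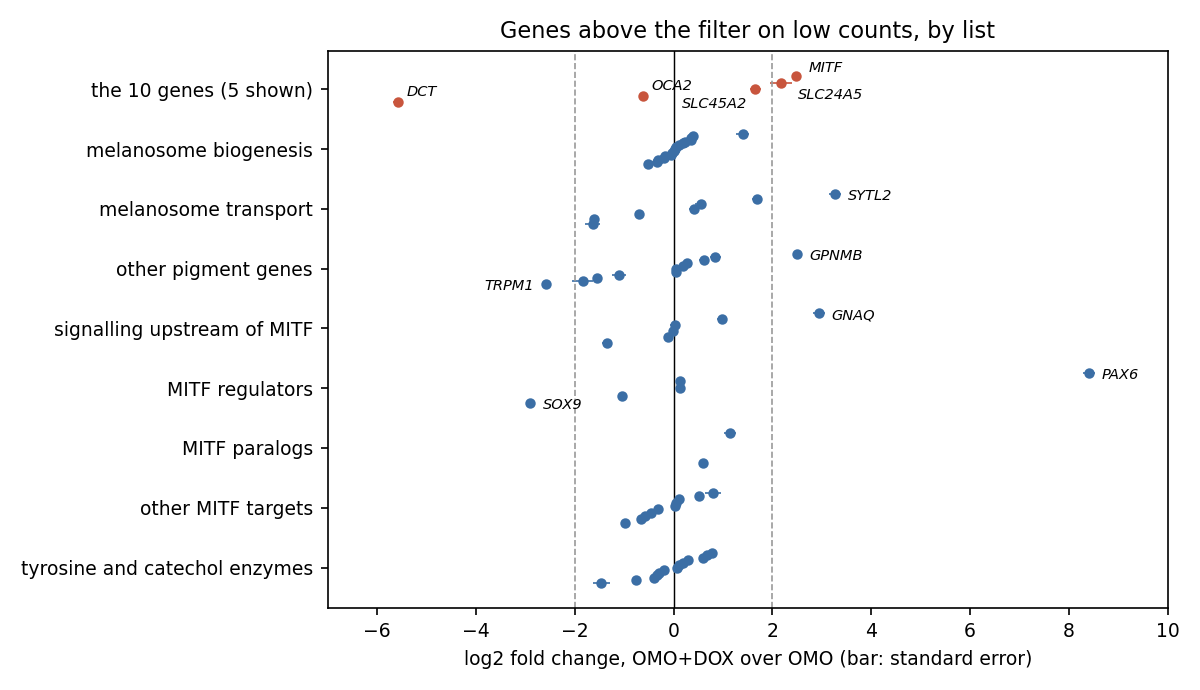
log2FC of OMO+DOX over OMO with its standard error for the 5 genes of the set above the filter (red) and genes of 8 pathway lists (blue). Dashed lines stand at -2 and 2, and the genes shown beyond them are named, with DCT at -5.58 as the farthest to the left and PAX6 at 8.40 as the farthest to the right.

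Around DCT on chromosome 13, 19 counted genes start within 1000 kb of its start, and 5 passed the filter. At FDR below 0.05, 1 was higher and 4 were lower, with a median log2FC of -0.47. Beside them, 38.5% of all genes tested were higher and 38.1% lower, 76.6% in either direction. The nearest, TGDS at 116.6 kb and GPR180 at 122.2 kb, had log2FC of -0.44 (FDR 3.13e-05) and -0.47 (FDR 1.68e-04). SOX21, a transcription factor of neural progenitors at 232.7 kb, fell from 40.8 ± 4.78 to 6.69 ± 0.377 CPM (log2FC -2.61, standard error 0.09, FDR 1.91e-10), and SOX21-AS1 beside it from 10.7 to 2.94 CPM (log2FC -1.86, FDR 5.84e-09). ABCC4 at 821.8 kb rose by 0.22 (FDR 0.0103), with overlapping groups. The log2FC of DCT, -5.58, was below that of each of these.

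The 5 genes whose pattern over the 8 libraries was most like that of DCT, by the root-mean-square (RMS) difference of log2 CPM centred on each gene, were GUCA1A (0.345), FCER2 (0.354), INSM2 (0.434), HSD17B2 (0.483) and LINC00499 (0.485). GUCA1A, a guanylate cyclase activator of photoreceptors, went from 130 ± 15.9 to 3.97 ± 0.748 CPM (SD, n = 4) and had the highest mean of the 5 in OMO. FCER2 and LINC00499 were at or under the limit of 3 counts in OMO+DOX. Those most like MITF were MACROD2 (0.062), GALNT7 (0.067), CACHD1 (0.070), SIPA1L1 (0.075) and SYTL4 (0.082), and CACHD1 went from 18.5 ± 1.79 to 105 ± 3.48 CPM. None of the 10 genes was among either group of 5, but this measure mainly follows the size of the change between the groups. The only other fall among the genes of the set above the filter was that of OCA2 (log2FC -0.61), so nothing is read from this.

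Markers of pigment cells were checked against the 10 genes. Of 11 melanocyte and neural crest markers, 6 were tested, and at FDR below 0.05 4 rose, 1 fell and 1 did not pass. The values of the 1 that fell, also past the stricter threshold, are not reported here. NGFR, the low-affinity nerve growth factor receptor, went from 0.0570 ± 0.0208 to 143 ± 11.4 CPM (log2FC 11.24, FDR 9.06e-14). ERBB3 and SNAI2 rose (log2FC 0.76, FDR 2.26e-05, and 0.60, FDR 1.19e-05), TWIST1 rose by 0.26 (FDR 0.0223), and CDH19 had a log2FC of -0.09 (FDR 0.606). MIA was under the limit of 3 counts in both groups, and SOX10 had the few counts given above. FOXD3, S100B and TFAP2A did not pass the filter either, at 0.0514, 0.117 and 0.959 CPM in OMO and 0.469, 0.222 and 0.763 CPM in OMO+DOX. The groups did not overlap for FOXD3 and overlapped for S100B and TFAP2A.

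Of 10 RPE markers, 8 were tested, 3 rose and 5 fell, and the summed level of the list went from 482 to 546 CPM to 332 to 358 CPM. Most of both sums was SERPINF1, at 397 ± 28.9 CPM in OMO and 192 ± 9.99 CPM in OMO+DOX, so the sum mainly follows that gene. RPE65, the isomerase of the visual cycle, rose from 21.0 ± 1.24 to 103 ± 6.84 CPM (log2FC 2.29, FDR 3.19e-11), and TTR and MERTK rose by 0.74 (FDR 4.62e-05) and 0.51 (FDR 4.59e-05). RGR, an opsin of the RPE, fell from 5.05 ± 0.825 to 0.571 ± 0.145 CPM (log2FC -3.13, FDR 1.73e-08). STRA6 (log2FC -1.74, FDR 1.25e-10), SERPINF1 (log2FC -1.05, FDR 1.79e-08), RDH5 (log2FC -1.24, FDR 4.27e-06) and BEST1 (log2FC -0.31, FDR 3.07e-03) fell as well. RLBP1 was under the limit of 3 counts in both groups. The markers were therefore mixed in direction, as were the 10 genes, and their part in the levels of the 10 genes was not tested.

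Of 11 medulloblastoma markers, 9 were tested, with 3 higher and 6 lower, and the sum of the list went from 2950 to 3150 CPM to 1310 to 1340 CPM. KCNA1 had no count in any library, and EOMES did not pass the filter, at 0.264 CPM in OMO and 0.777 CPM in OMO+DOX. NRL, a photoreceptor factor expressed in this tumour type, fell from 28.7 ± 2.48 to 2.45 ± 0.264 CPM (log2FC -3.55, FDR 1.96e-11), and IMPG2 (log2FC -3.01, FDR 1.71e-10), NPR3 (log2FC -2.57, FDR 3.50e-11), GABRA5 (log2FC -1.75, FDR 3.91e-11) and MAB21L2 (log2FC -0.65, FDR 3.65e-07) fell too. KHDRBS2, RBM24 and UNC5D rose (log2FC 5.77, FDR 1.82e-13, 1.30, FDR 6.86e-08, and 3.52, FDR 3.30e-10), from low levels in OMO of 1.54, 5.79 and 0.838 CPM. UNC5D passed the filter only through OMO+DOX and so had to differ. Of 6 markers of glia, blood, vessels and fibroblasts only COL1A1 passed the filter (log2FC 0.09, FDR 0.211).

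**Figure D5:**
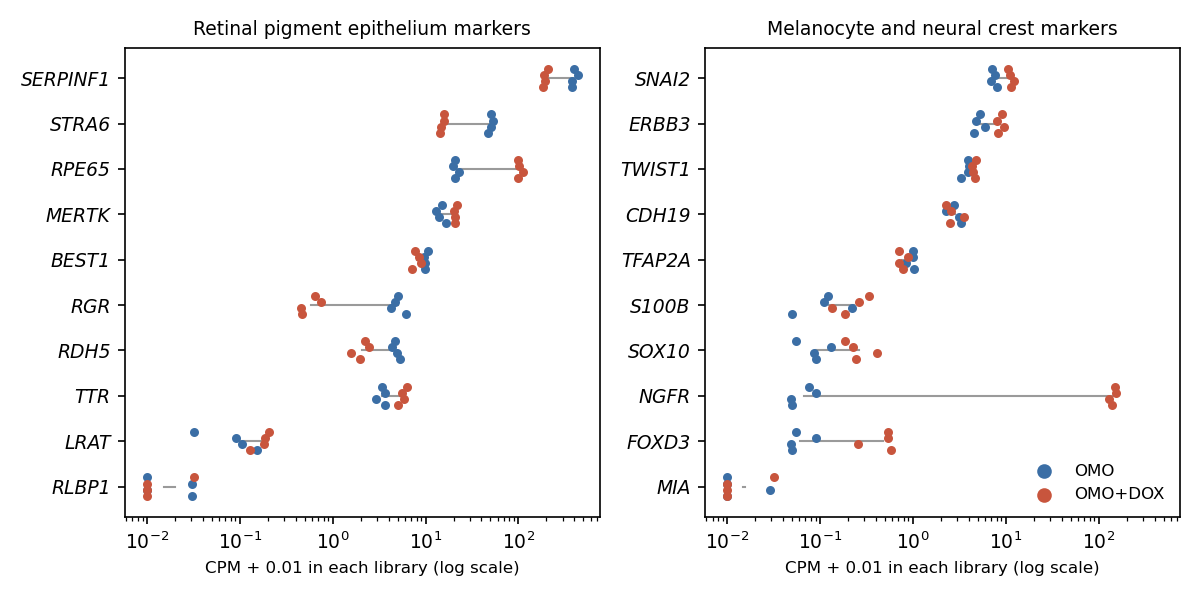
CPM plus 0.01 (log scale) in each library of RPE markers (left) and melanocyte and neural crest markers (right), with OMO in blue and OMO+DOX in red. RPE65 rose from 21.0 to 103 CPM and RGR fell from 5.05 to 0.571 CPM, while NGFR rose from 0.0570 to 143 CPM.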

How the data were processed

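The labels assign 4 libraries to OMO (untreated) and 4 to OMO+DOX. The study describes poly(A)+ TruSeq Stranded mRNA libraries, trimmed with Trim Galore, aligned with STAR to GRCh38 with GENCODE 32 and counted with RSEM, per the labels and methods. Tool versions and the strand setting of the counting are not given in the sources used here. The authors deposited RSEM expected counts per gene, 1 table per library, which were rounded to whole numbers. The study's methods call the 4 replicates of a group independent biological replicates, and neither they nor the labels say whether these were separate cultures, so p-values measure only the spread between these libraries.

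The edgeR 4.0.16 quasi-likelihood test (R 4.3.3) was run with TMM scaling, no covariate, on genes over 1 CPM in 4 or more of the 8 libraries, with Benjamini-Hochberg adjustment over all 15222. CPM are TMM-scaled. The standard error is the log2FC divided by the square root of the F statistic. Genes under the filter took their log2FC from the same fit without the filter and have no p-value. Levels per kb use the union of GENCODE 29 exons, whose positions matched 58561 of the 60668 gene IDs. On simulated counts for the 15222 genes, 100 of 100 genes with an absolute log2FC of 3 were recovered at FDR below 0.001 and absolute log2FC above 2. At FDR below 0.05, 97 of 100 with an absolute log2FC of 1 were recovered, with 9 false calls.

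Members and lists were chosen with earlier results of these data known. The text names all 10 members, in each list the genes past both thresholds and the 3 tested genes with the largest change, tested markers and neighbours of DCT, the 5 genes most like DCT and MITF, and genes singled out after their values were seen, among them genes that overlap a member, MYC, CAD, NCL, MIF, DDT, RAB32, MLPH, TFEC, SOX10, PAX3, EDNRB and EDN3. Alternatives were DESeq2 size factors, library size alone, the DESeq2 1.42.0 Wald test, other filters, a replicate block and leaving out each library. Promoter sequences are from RefSeq (GRCh38.p14). Values of 2 of the listed genes are not reported here, though the counts of the lists include them.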

Additional observations from a re-analysis of the deposited data

Results flagged for a closer look

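In 150 groups of 4 libraries, 7 had a highest or lowest library far from the other 3 (gap over range above Dixon's critical value), and chance alone flags about 5%, that is 7.5 groups. Of the 10 melanin pathway genes, GPR143 had one, OMO replicate 4 at 0.0224 CPM beside 0.0387 to 0.0408, which is 1 count beside 2. For other genes, OMO replicate 3 was low for IMPG2 (375 CPM beside 499 to 517) and NPR3 (527 beside 632 to 645), and OMO replicate 1 was low for TWIST1 (3.31 beside 3.92 to 4.03). OMO+DOX replicate 2 was high for BCL2 (6.70 CPM beside 5.83 to 5.94) and low for MC1R (2.42 beside 2.68 to 2.71), and OMO+DOX replicate 1 was the only one of its group with FCER2 above 0, at 0.0197 CPM.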

How the results depend on the processing

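Under the 14 alternatives, CDH19, which was not called, changed sign (log2FC 0.03 with library size alone), and no other fitted log2FC in the text that was recomputed did. With the filter at over 1 CPM in 5 libraries or more, the genes called at both thresholds fell to 313 higher and 249 lower, the melanin pathway genes called higher to 1 at either threshold, the strictly called pathway genes higher to 2, signalling genes higher to 1 and MITF regulators higher to 0, since genes at or under 1 CPM in 1 group were then not tested. Without a filter, strictly called pathway genes higher were 7, neighbours of DCT higher 2 and MITF regulators higher 3. With library size alone, which shifted the median log2FC of all genes by 0.13, melanosome biogenesis genes were 9 higher and 3 lower, MITF regulators 3 higher and tyrosine and catechol genes 7 higher, and the log2FC was -5.45 for DCT, -0.48 for OCA2, 1.78 for SLC45A2 and 2.59 for MITF.

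Leaving out 1 library at a time gave a log2FC of -5.62 to -5.51 for DCT, 2.42 to 2.51 for MITF, -0.65 to -0.57 for OCA2, 1.60 to 1.69 for SLC45A2 and 1.96 to 2.45 for SLC24A5, and 1 to 2 melanin pathway genes strictly higher (1 without OMO replicate 3). Signalling genes lower reached 2 without OMO+DOX replicate 4, and tyrosine and catechol genes higher reached 7 without OMO replicate 3. TWIST1 lost its call in 4 alternatives (log2FC 0.19 to 0.25). Same-numbered libraries correlated at 0.157, 0.144, 0.241 and -0.176, and only replicate 2 matched its own number best, so the numbers were not taken to pair the libraries. With the replicate number as a block, 667 genes were called higher and 418 lower at both thresholds, 25 pathway genes were higher and 27 lower at FDR below 0.05, and no count of the melanin pathway genes changed.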
